A study of Mus musculus with 3 samples.

Results

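Glutathione transferases and related detoxifying enzymes were followed across 3 single-cell libraries of mouse small-intestinal crypts. The set held 10 of the 28692 genes in the deposited tables, chosen by symbol: Gsta1, Gsta4 and Gm10639 of the alpha class, Gstm1 and Gstm3 of the mu class, Gsto1 (omega class), Gstp1 (pi class), the membrane-bound Mgst1, and the reductases Cbr3 and Nqo1. They were picked with results of these libraries known, because their levels differed between the libraries, so the differences below describe the libraries and were not tested. All 3 libraries came from adult C57BL/6 mice of 2 to 3 months that carried Olfm4-IRES-eGFPCreERT2, a tamoxifen-inducible Cre at Olfm4, a gene of crypt base stem cells. The control (short name Het) was CDC42+/flox and so also had 1 floxed allele, the KO was CDC42flox/flox, and the rescue was CDC42flox/flox together with Yapflox/flox and Tazflox/+. CDC42 is a small GTPase that organises cell polarity and actin, and YAP and TAZ are transcriptional co-activators of the Hippo pathway. The sources used here do not say whether and when tamoxifen was given, or how many animals each library held. With 1 library per genotype, no difference has a replicate check, and every interval below is an exact 95% interval that covers counting error only.

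Glutathione transferases join glutathione to reactive, oxidised or foreign compounds, which makes them soluble and ready for export. Alpha class enzymes also reduce lipid peroxides and are abundant in absorptive enterocytes, the cells that meet dietary compounds first. NQO1 and CBR3 reduce quinones and carbonyl groups. Many genes of both kinds are known targets of NRF2 (Nfe2l2), a transcription factor that KEAP1 holds at a low level until the cell is stressed, and some respond to the aryl hydrocarbon receptor (AHR).

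Levels were taken in barcodes with at least 2 Epcam UMIs and 0 Ptprc UMIs, that is, with an epithelial and without a leukocyte surface gene, which also had 500 or more genes, 1000 or more UMIs and a mitochondrial share of no more than 20%. A unique molecular identifier (UMI) marks 1 captured transcript end, and a level is given as counts per 1000000 UMIs (CPM), with no division by length, so that it is compared between libraries and not between genes. Values of the 3 libraries are given in the order control, KO, rescue. The rule kept 515 control, 1504 KO and 726 rescue barcodes with 18549801, 61355024 and 39846684 UMIs. The libraries differed in makeup. Enterocyte-like barcodes were 22.9% of the control, 55.6% of the KO and 33.3% of the rescue barcodes, and the stem-cell-like cluster held 129, 0 and 1. Summed Paneth cell markers stood at 90588, 975 and 16296 CPM, summed stem cell markers at 1072, 168 and 407 CPM, and summed immune markers at 61.3, 15.5 and 39.7 CPM. The label of the KO library was not borne out by Cdc42 itself, which stood at 249, 384 and 383 CPM, but a 3' tag outside a deleted exon checks nothing. The words KO and rescue are therefore those of the labels.

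The 3 alpha class genes lie side by side in GRCm38 (GENCODE vM21): Gsta4 at chr9:78182774-78209349, Gsta1 at chr9:78230656-78242684 and Gm10639 at chr9:78289923-78305525, all on the plus strand. Gsta1 and Gm10639 transcripts were identical at 845 of 874 aligned bases (96.7%). Their RefSeq start-site windows (GRCm38.p6, 250 bases before to 50 bases after the start) were identical at 280 of 285 aligned bases (98.2%). Both are shown because the neighbours share nearly all of this sequence. Each is printed 5′ to 3′ on the plus strand to 30 bases past the start, and capitals mark GCGTG, the core bound by AHR.
Gsta1, chr9:78230419-78230698: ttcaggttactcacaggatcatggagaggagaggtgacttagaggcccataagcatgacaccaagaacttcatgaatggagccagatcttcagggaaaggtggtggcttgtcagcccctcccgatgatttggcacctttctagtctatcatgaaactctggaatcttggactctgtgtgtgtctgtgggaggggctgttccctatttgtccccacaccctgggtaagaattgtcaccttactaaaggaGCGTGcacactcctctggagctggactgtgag
Gm10639, chr9:78289678-78289957: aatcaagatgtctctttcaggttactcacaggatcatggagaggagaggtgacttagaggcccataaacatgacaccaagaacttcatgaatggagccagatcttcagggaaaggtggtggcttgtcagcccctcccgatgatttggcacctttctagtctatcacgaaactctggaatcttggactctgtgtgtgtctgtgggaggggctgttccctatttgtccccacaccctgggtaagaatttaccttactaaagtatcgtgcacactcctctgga

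Start-site windows were found for 9 of the 10 genes, 11 windows in all. Both strands were searched for TGACNNNGC, the antioxidant response element core to which NRF2 binds, for TGANTCA (AP-1), for GCGTG and for GGAATG (TEAD, the partner of YAP and TAZ). TGACNNNGC was in 1 of the 11 windows, against 12.4% of all 32851 windows, and TGANTCA in 1, against 7.81%. GCGTG was in 4 windows of 3 genes, against 32.4%, and GGAATG in 0, against 14.7%. TGACNNNGC and TGANTCA do not share a full match in these windows, and each match is printed with the letters around it and the match in capitals. A match describes these letters only.
Mgst1, TGACNNNGC on the opposite strand, starting 56 bases before the start, chr6:138140460-138140489: ggcggggcttgGCACGGTCAggaggcgggg
Gstp1, TGANTCA, starting 74 bases before the start on the minus strand, chr19:4037969-4037998: tctccaacgtgtTGAGTCAgcatccggggc

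The alpha class was the set's largest part and was higher in the KO library than in both others. Gsta1, the most counted alpha class transferase, stood at 1247 (1231 to 1263), 6917 (6896 to 6938) and 868 CPM (859 to 877). The KO library was 5.55-fold above the control (5.47 to 5.62), and the rescue 7.97-fold below the KO (7.88 to 8.06). Gsta4, which acts on 4-hydroxynonenal, a product of lipid peroxidation, stood at 158, 1712 and 186 CPM. The KO level was 10.8-fold above the control (10.5 to 11.3), and the rescue level 9.20-fold below the KO (8.99 to 9.42). Gm10639, a gene of the same cluster known mainly by its sequence, stood at 32.3, 95.1 and 14.3 CPM, and in the rescue it was 2.26-fold below the control (2.01 to 2.54). Intervals that did not overlap between the libraries were not particular to the alpha class. The share over all genes was not taken, so nothing is read from such gaps. Summed over the class, the levels were 1437, 8724 and 1068 CPM, and Gsta1 alone made up 49.8%, 70.8% and 33.9% of the UMIs of all 10 genes.

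The counts of Gsta1 and Gm10639 are uncertain, because copies of these genes share the 3' ends from which the tags come. Of the 50-base stretches in the last 500 bases of Gsta1, 90.0% also occur in another gene, 88.7% in Gm3776 and 27.7% in Gsta2. For Gm10639 the share was 30.2%, and for Gstp1 75.2%, all of them in Gstp2. For Gsta4, Gsto1, Mgst1, Cbr3 and Nqo1 it was 0. Gsta2 itself had 7.22, 18.7 and 3.97 CPM. Gsta4, whose 3' end is unique, differed in the same direction as Gsta1 and Gm10639 in KO over control and in rescue over KO.

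The mu class went the other way. Gstm3 stood at 179 (173 to 186), 24.7 (23.4 to 25.9) and 209 CPM (204 to 213). The KO library was 7.28-fold below the control (6.85 to 7.74), and the rescue 8.47-fold above the KO (8.02 to 8.96). Gstm1 stood at 176, 81.9 and 142 CPM, with the KO 2.14-fold below the control (2.05 to 2.24) and the rescue 1.74-fold above the KO (1.67 to 1.80). With a mitochondrial limit of 10%, which left 4, 375 and 3 enterocyte-like barcodes, the direction of KO over control turned for both, to log2 ratios of 0.72 for Gstm3 and 0.90 for Gstm1. At the 20% limit both genes were lowest in the KO library, and the class summed to 355, 107 and 351 CPM. The pair lies on the minus strand of chromosome 3, Gstm3 at chr3:107963696-107969283 and Gstm1 at chr3:108012255-108017973, and their 3' ends share 0.887% of 50-base stretches.

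Among the others, Gsto1, an omega class enzyme that works as a thiol transferase, stood at 231, 522 and 333 CPM, with the KO 2.26-fold above the control (2.19 to 2.34). Gstp1, the pi class enzyme common in dividing epithelium, stood at 143, 182 and 324 CPM and was highest in the rescue library, 2.27-fold above the control (2.17 to 2.36). Mgst1, a transferase and peroxidase of the endoplasmic reticulum and the outer mitochondrial membrane, stood at 314, 176 and 433 CPM. The KO was 1.78-fold below the control (1.73 to 1.84) and the rescue 2.46-fold above the KO (2.40 to 2.52). Mgst1 too was higher in the KO at the 10% limit (log2 ratio 1.05). At the 20% limit it shared with Gstm3 the order rescue, control, KO from highest to lowest.

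Of the reductases, Cbr3 was rarely counted outside the KO library, with 93, 1793 and 371 UMIs, or 5.01 (4.05 to 6.14), 29.2 (27.9 to 30.6) and 9.31 CPM (8.39 to 10.3). The KO library was 5.83-fold above the control (4.73 to 7.26). Nqo1 stood at 21.9, 27.0 and 44.3 CPM. The KO level of Nqo1 was 1.23-fold (1.10 to 1.37) and its rescue level 2.02-fold above the control (1.81 to 2.25). The reductases thus differed from each other in which library was highest.

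**Figure D1:**
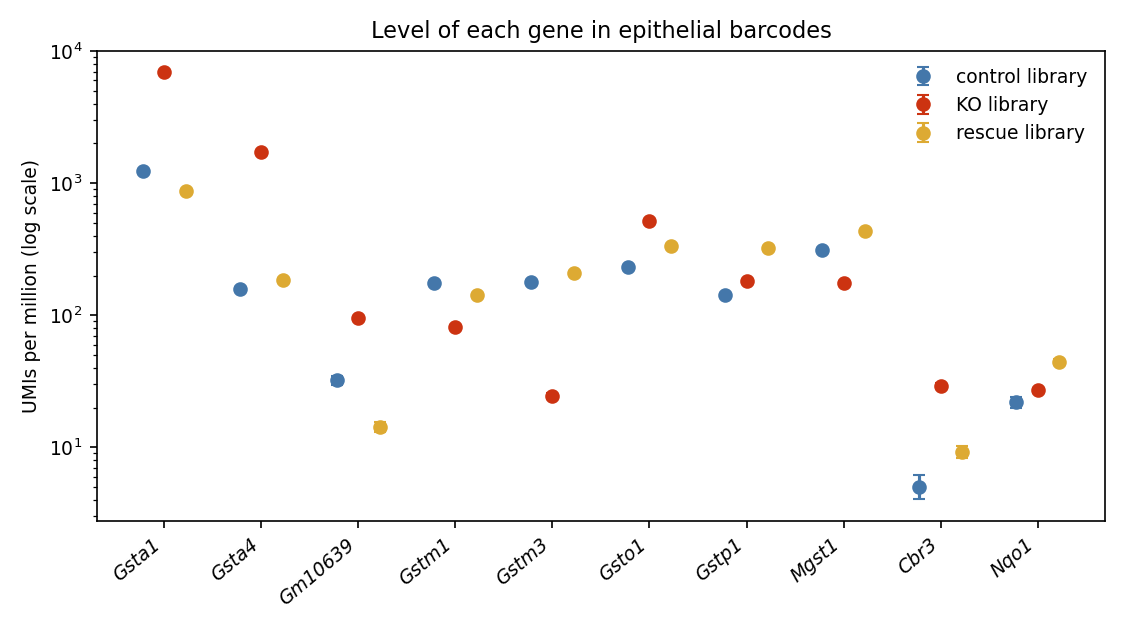
Level of each of the 10 genes, in CPM on a log axis, in the epithelial barcodes of the control, KO and rescue libraries. Points are 1 library each and bars are exact 95% Poisson intervals of counting error; the 3 alpha class genes are highest in the KO library, with Gsta1 at 6917 CPM, and Gstm3 is lowest there at 24.7 CPM.

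A gene was counted as higher or lower where it differed at least 2-fold with an interval that left out 1. In KO over control 5 of the 10 genes were higher (Gsta4, Cbr3, Gsta1, Gm10639 and Gsto1), against 10.3% of the 12668 genes with at least 20 UMIs in either library, and 2 were lower (Gstm3 and Gstm1), against 25.3%. From KO to rescue 4 were lower (Gsta4, Gsta1, Gm10639 and Cbr3), against 11%, and 2 were higher (Gstm3 and Mgst1), against 22.7%. In rescue over control 2 were higher (Gstp1 and Nqo1), against 3.31%, and 1 was lower (Gm10639), against 11.6%. Because these contrasts led to the choice of the genes, nothing is read from the counts. The comparisons share libraries, so that a high KO value enters the first as a rise and the second as a fall. The median log2 ratio of all genes was -0.33 in KO over control, 0.01 in rescue over control and 0.32 in rescue over KO. Just inside the 2-fold limit in KO over control were Gsto1 at a log2 ratio of 1.18 and Gstm1 at -1.10, and just outside it was Mgst1 at -0.84.

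**Figure D2:**
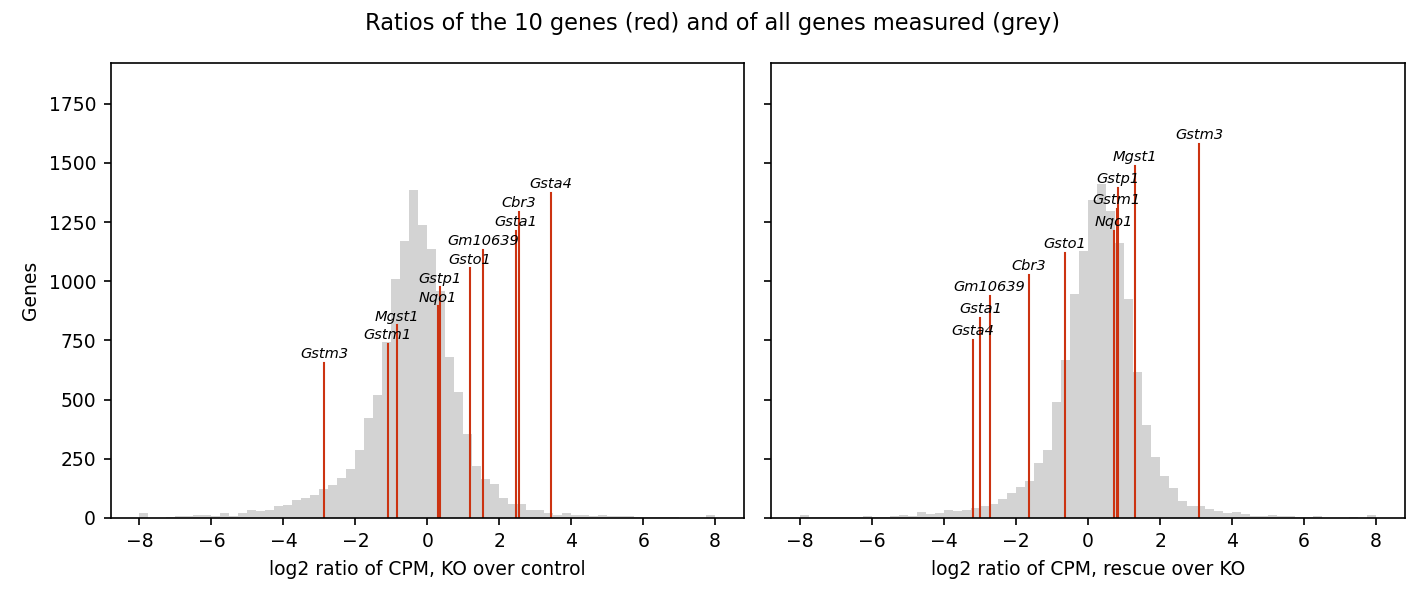
Log2 ratios of CPM in all epithelial barcodes, KO over control on the left and rescue over KO on the right, for the 10 genes (red lines, named) and for all genes with at least 20 UMIs in either library (grey, genes per bin of the ratio, with values beyond 8 drawn at 8). Gsta4 lies at 3.44 on the left and -3.20 on the right, Gstm3 at -2.86 and 3.08, and Nqo1 and Gstp1 near the middle of both.

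These levels mix cell types, whose shares differed between the libraries, so the barcodes were clustered without the 10 genes and the clusters named from marker lists. In sums over barcodes, more cells of a type and more RNA per cell cannot be told apart. Enterocyte-like barcodes, the absorptive class, numbered 118, 836 and 242. They held 95.4%, 85.9% and 88.6% of all Gsta1 UMIs. They fell into different clusters by library: cluster 12 held 109 of the control barcodes, cluster 1 all 242 of the rescue and 9 of the control, and clusters 0, 2 and 3 all of the KO. The values inside the class therefore come from different clusters in each library. Support for the name also differed. Of 24 enterocyte markers, 13 were raised in cluster 12, 7 in cluster 1, and 6, 14 and 18 in clusters 0, 2 and 3. At resolution 2.0 the class held 109, 726 and 110 barcodes. Ratios inside the class thus do not compare cells known to be alike.

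Inside the enterocyte-like class the alpha class difference was smaller than over all barcodes, and the mu class difference larger. Gsta1 stood at 4075, 9343 and 2487 CPM, a KO level 2.29-fold above the control (2.26 to 2.32). Gsta4 stood at 458, 2168 and 453 CPM, a KO level 4.73-fold above the control (4.54 to 4.92), while control and rescue differed by 1.01-fold (0.966 to 1.06). Gm10639, at 104, 125 and 40.2 CPM, was within 2-fold in KO over control at 1.20-fold higher (1.10 to 1.31). The alpha class genes thus separated: Gsta4 kept a difference of over 4-fold, and Gm10639 did not reach 2-fold.

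Gstm3 had the widest gap of the 10 genes in this class, with 555, 18.0 and 575 CPM. The KO level was 30.9-fold below the control (28.4 to 33.5) and 32.0-fold below the rescue (29.6 to 34.6), and control and rescue differed by 1.04-fold (0.993 to 1.08). Gstm1 stood at 438, 66.3 and 351 CPM, a KO level 6.61-fold below the control (6.25 to 6.99). Mgst1 stood at 603, 126 and 475 CPM, 4.77-fold lower in the KO (4.56 to 4.99), and Nqo1 at 51.3, 23.1 and 59.4 CPM, 2.22-fold lower in the KO (1.93 to 2.54). In all 4 of these genes the control and rescue enterocyte-like levels lay within 1.27-fold of each other and the KO level lay below both.

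The remaining genes were closer together in this class. Gsto1 stood at 368, 618 and 425 CPM, a KO level 1.68-fold above the control (1.61 to 1.76), and Gstp1 at 269, 183 and 415 CPM, a KO level 1.46-fold below it (1.38 to 1.55). Cbr3 stood at 12.7, 19.8 and 20.2 CPM, so that the KO and rescue levels differed by 1.02-fold (0.882 to 1.18). In KO over control, 2 genes were higher in this class, against 9.94% of 10630 genes, and 4 lower, against 21.1%. Between rescue and KO, 5 were higher in the rescue, against 18.0%, and 3 lower, against 11.2%. In rescue over control none was higher, against 2.82%, and 1 was lower (Gm10639), against 5.27%, with no test run at 1 library per group.

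**Figure D3:**
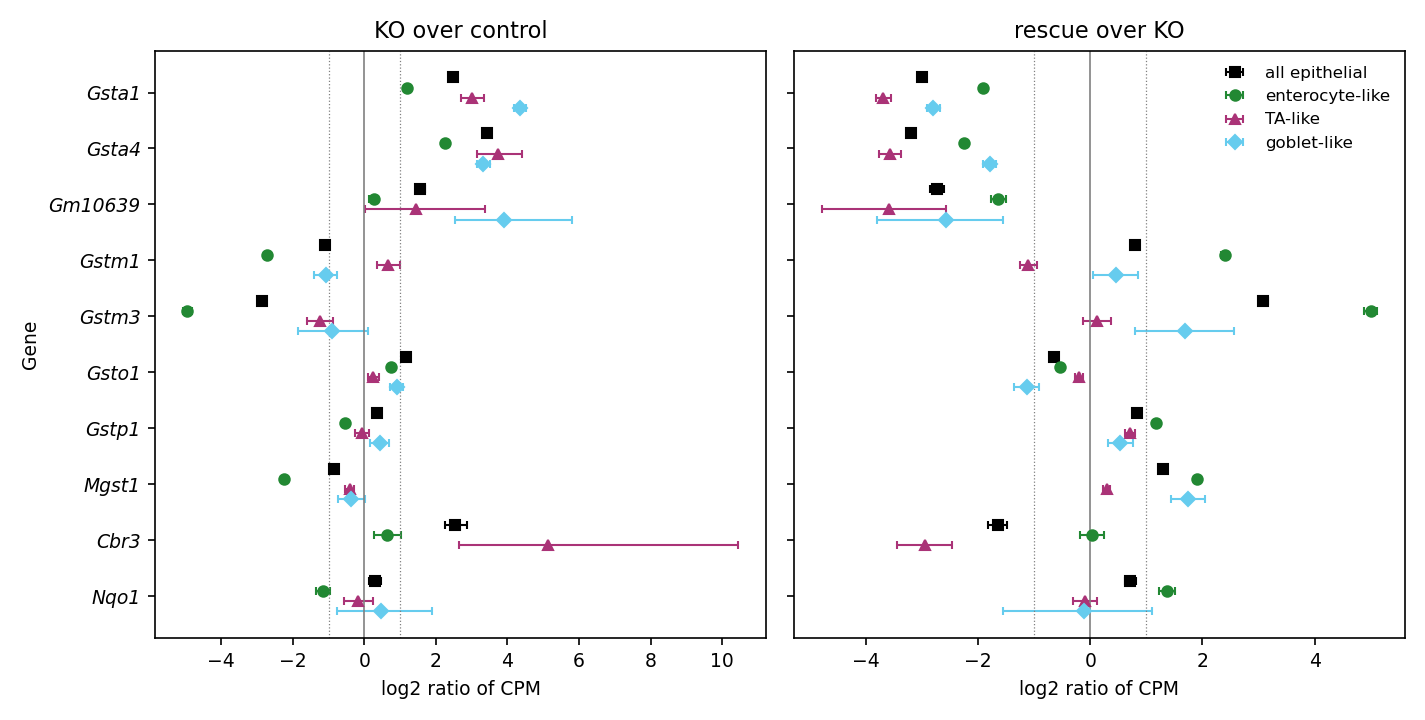
Log2 ratios of CPM for each gene, KO over control on the left and rescue over KO on the right, in all epithelial barcodes and in the enterocyte-like, transit-amplifying-like (TA-like) and goblet-like classes; bars are conditional exact 95% intervals of counting error, and dotted lines mark 2-fold. Gstm3 in enterocyte-like barcodes is the lowest point on the left at -4.95, and goblet-like Cbr3 is not drawn because 1 of the libraries had 0 UMIs.

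The spread over single enterocyte-like barcodes of at least 5000 UMIs was wide in each library. Gsta1 had a median of 3939 CPM in 109 control barcodes, with the middle 50% from 2154 to 5049, a median of 8549 in 793 KO barcodes (5271 to 11835) and a median of 2256 in 237 rescue barcodes (1544 to 3327). The middle ranges of control and rescue overlapped and that of the KO lay above both. For Gsta4 the middle 50% ran from 202 to 642 CPM in the control, from 1327 to 2726 in the KO and from 222 to 636 in the rescue. For Gstm3 it ran from 326 to 686 in the control and from 269 to 774 in the rescue, and the KO median was 0 with an upper quartile of 21.5 CPM. Cells of 1 library are not replicates, so these ranges describe cells and not genotypes.

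**Figure D4:**
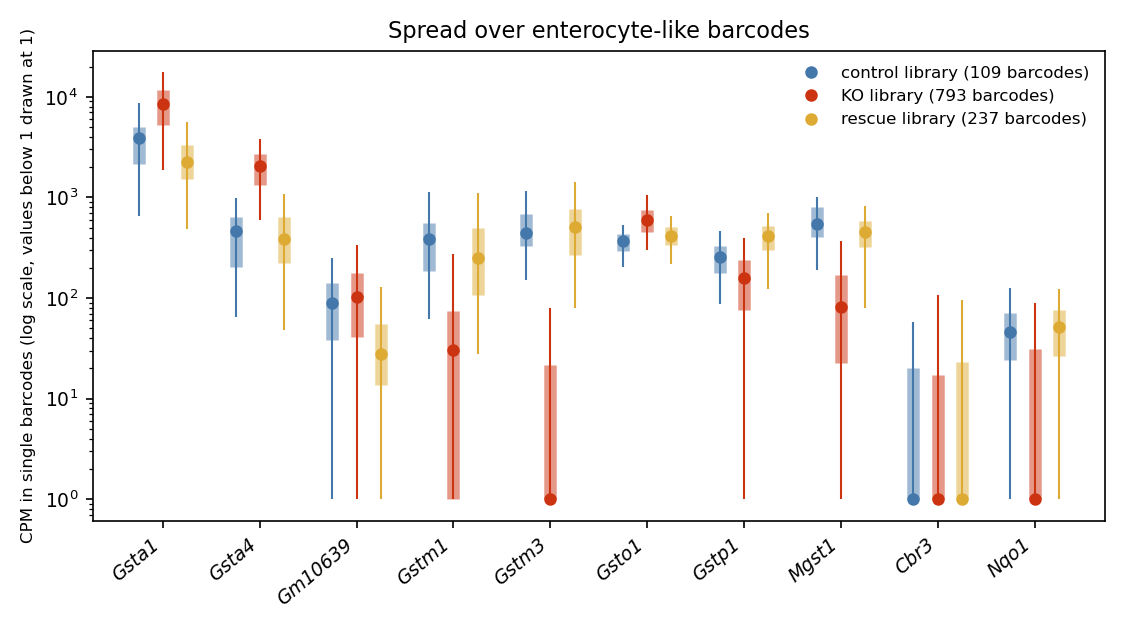
CPM of each gene in single enterocyte-like barcodes of at least 5000 UMIs, on a log axis with values below 1 drawn at 1: points are medians, thick bars the middle 50% and thin lines the range from the 5th to the 95th percentile. The KO library stands above the others for Gsta4 (median 2036 CPM against 467 and 390 for control and rescue) and below them for Gstm3.

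The KO enterocyte-like clusters differed among themselves. Gsta1 stood at 11784 CPM in cluster 0, 7620 in cluster 3 and 6122 in cluster 2, and each of the 3 lay above the control cluster (4106) and the rescue cluster (2487). Over the same clusters Gstm3 stood at 27.7, 13.2 and 3.29 CPM, and Mgst1 at 176, 100.3 and 53.5 CPM, all below the control (591) and rescue (475) levels of Mgst1. Cbr3 stood at 35.2, 6.17 and 1.89 CPM. A KO cluster of 150 barcodes with no class name, led by Anxa1, Cbr3, Clu and Akr1b8, had 94.5 CPM of Cbr3, 4309 of Gsta1 and 67.8 of Gstm3. Clusters were numbered by size and have no order in time.

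**Figure D5:**
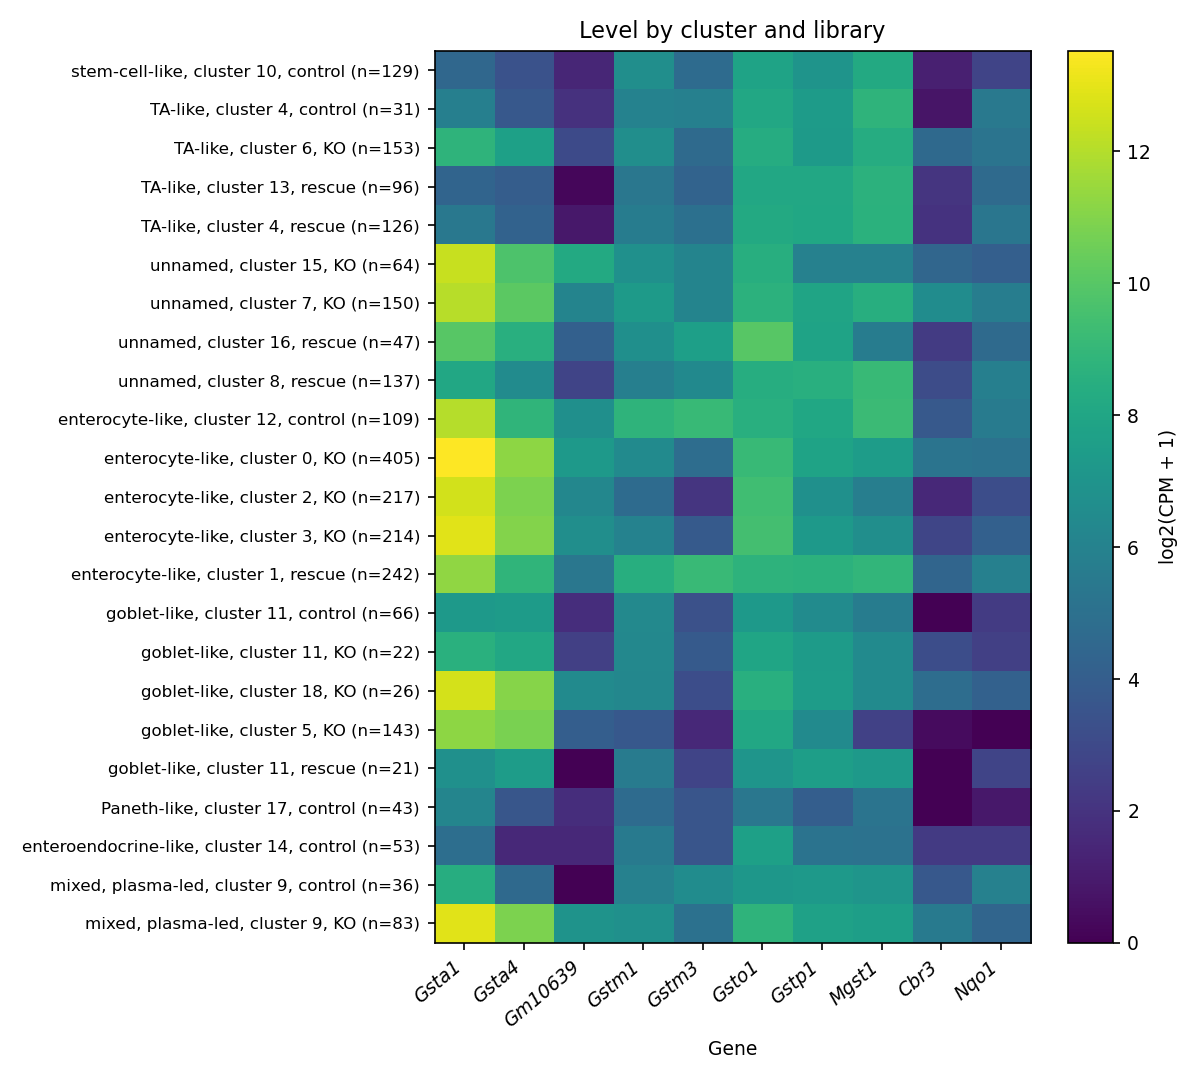
Level of each gene as log2(CPM + 1), by colour, in every cluster and library with at least 20 barcodes, grouped by cluster class with the number of barcodes in brackets. Gsta1 is at 383 CPM or more in every KO row, and Gstm3 is highest in the control (560 CPM) and rescue (575 CPM) enterocyte-like rows and at 68.9 CPM or less in every KO row.

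Outside enterocytes, TA-like barcodes, the dividing progenitors above the stem cells, also had more alpha class RNA in the KO library. They numbered 34, 154 and 222 and again came from different clusters: 153 of the KO barcodes were cluster 6, which held none of the control or rescue, and those were in clusters 4 (31 control, 126 rescue) and 13 (3 and 96). Gsta1 stood at 54.7, 441 and 34.2 CPM, a KO level 8.06-fold above the control (6.48 to 10.1), and Gsta4 at 15.2, 203 and 17.1 CPM, a KO level 13.4-fold above it (8.89 to 21.2). The control and rescue levels of Gsta1 lay below the 61.7 and 49.0 CPM of immune barcodes (with Ptprc and without Epcam UMIs) in the same libraries. The rescue level of Gsta4 also lay below its immune level, 20.6 CPM. Immune barcodes were shallower, with median depths of 4956 and 4804 UMIs in control and rescue, so the same free RNA weighs more in their CPM. In counts, control Gsta1 had 83 UMIs in 34 TA-like and 113 in 366 immune barcodes. Rescue Gsta1 had 518 UMIs in 222 TA-like and 126 in 472 immune barcodes. What part free RNA has in these levels was not tested. Cbr3 had 1 UMI in the control and 189 in the KO, or 0.659 and 23.3 CPM, a ratio of 35.4 whose interval ran from 6.28 to 1406. The KO level of Cbr3 (20.1 to 26.9) overlapped that of the shallower immune barcodes in that library, 14.8 CPM (8.08 to 24.8). In counts that was 189 UMIs in 154 TA-like barcodes and 14 in 125 immune ones. Gstm3, at 58.7, 24.8 and 27.0 CPM, had a KO level 2.36-fold (1.82 to 3.05) and here also a rescue level 2.17-fold below the control (1.70 to 2.73). Gstm1 stood at 63.3, 101 and 46.8 CPM, so that its order over the libraries differed from that in enterocyte-like barcodes, and Mgst1 stood at 438, 330 and 404 CPM, within 2-fold. In KO over control 4 genes were higher in this class, against 6.43% of 10048 genes, and 1 lower, against 5.01%. The rescue had 0 genes higher than the KO, against 6.12%, and 5 lower, against 5.53%, and in rescue over control 0 of 9 measured were higher, against 2.86%, and 1 lower, against 3.29%.

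Goblet-like barcodes, the mucus-secreting class, numbered 67, 191 and 36. Gsta1 stood at 161, 3292 and 474 CPM with the KO 20.4-fold above the control (18.1 to 23.1), and Gsta4 at 169, 1701 and 490 CPM, with the KO 10.0-fold above it (8.93 to 11.3). Cbr3 had 0 UMIs in the control and rescue and 47 in the KO, of which 41 were in the 26 barcodes of cluster 18 and 1 in the 143 of cluster 5. Its KO level of 9.11 CPM (6.69 to 12.1) was below the 14.8 CPM of immune barcodes in that library, which rests on 14 UMIs in 125 barcodes. Those barcodes were shallower, so this comparison cannot show whether the goblet-like level is free RNA. The part of free RNA was not tested and no difference is read from Cbr3, although it is among the genes counted next. In KO over control 4 genes were higher, against 10.6% of 8836 genes, and 1 lower (Gstm1), against 28.9%. The rescue had 2 genes above the KO, against 20.3%, and 5 below it, against 11.2%. In rescue over control 3 of 7 measured were higher (Gsta1, Gsta4 and Mgst1), against 2.83%, and 0 lower, against 8.16%.

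The goblet-like class again came from different clusters. Cluster 5 held 143 of the KO barcodes and had 2360 CPM of Gsta1, and cluster 18 held 26 and had 6417. Cluster 5 also held 14 of the 36 rescue barcodes, with 1245 CPM of Gsta1 (1108 to 1393), and its Gsta4 stood at 1790 CPM in the KO (1743 to 1838) and 1500 in the rescue (1350 to 1663). Cluster 11, which held 66 control, 22 KO and 21 rescue barcodes, allowed a comparison inside 1 cluster. There Gsta1 stood at 161, 383 and 111 CPM, a KO level 2.38-fold above the control (1.99 to 2.84), and Gsta4 at 169, 277 and 177 CPM, a KO level 1.64-fold above it (1.35 to 1.99). Within the shared cluster the KO difference was thus smaller than over the class. The rescue level in cluster 11 was 1.46-fold below the control for Gsta1 (1.17 to 1.83) and 1.05-fold above it for Gsta4 (0.867 to 1.27), whereas over the class it was 2.94-fold and 2.89-fold above. TA-like cluster 4, which control and rescue shared with 31 and 126 barcodes, had 56.1 and 42.0 CPM of Gsta1 and 58.9 and 31.4 CPM of Gstm3.

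Stem-cell-like, Paneth-like and enteroendocrine-like clusters had enough barcodes in the control library only. In the 129 stem-cell-like barcodes Gsta1 stood at 22.0 CPM, Gsta4 at 9.61, Gstm3 at 25.1, Gstm1 at 101, Gsto1 at 232, Gstp1 at 128 and Mgst1 at 294. In the 43 Paneth-like barcodes Gsta1 stood at 69.4, Gsto1 at 39.5 and Mgst1 at 35.8 CPM, and in the 53 enteroendocrine-like barcodes Gsta1 stood at 28.7, Gsto1 at 202 and Mgst1 at 32.7 CPM. In the control, Gsta1 thus stood far higher in enterocyte-like (4075) than in TA-like (54.7) or stem-cell-like barcodes, whereas Gsto1 stood at 232, 276 and 368 CPM and Mgst1 at 294, 438 and 603 CPM from stem-cell-like through TA-like to enterocyte-like barcodes. Alpha-defensin genes took 12.8% of the control, 0.0958% of the KO and 2.34% of the rescue epithelial UMIs, which lowers every other level in CPM where the share is high.

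Levels in immune barcodes (Ptprc at least 1 UMI, Epcam 0) were set beside the epithelial ones as a background. In them, free RNA and RNA of the immune cells themselves cannot be told apart. There were 366, 125 and 472 of them, with median depths of 4956, 4885 and 4804 UMIs against 33401, 41467 and 46115 in epithelial barcodes. Barcodes were thinned to 2000 UMIs each, and 37, 52 and 14 epithelial and 13, 7 and 6 immune barcodes were too shallow for it. Gsta1 was then detected in 32.8%, 88.4% and 44.7% of epithelial barcodes (66.7%, 99.2% and 80.1% before thinning) and in 7.93%, 50.8% and 7.51% of immune barcodes. As a level, immune Gsta1 was 4.95%, 3.92% and 5.64% of the epithelial level. Immune barcodes being shallower, the same free RNA weighs more in their CPM and in their thinned shares. For Cbr3 in the KO the immune level was 50.6% of the epithelial one, on 14 UMIs, and for Mgst1 in the KO 51.7%. Gstp1 had immune levels of 43.6%, 29.1% and 34.6%. Immune Mgst1 stood at 10.9, 90.8 and 17.5 CPM, highest in the KO, where its epithelial level was lowest. What part of the immune levels was RNA of the immune cells themselves was not tested. Thinned shares of Cbr3 (1.88%, 4.55% and 1.12% of epithelial barcodes) and Nqo1 (4.18%, 4.68% and 7.16%) lay near the level of a single UMI, and no change is read from them. Summed over KO TA-like barcodes, Gsta1 stood at 441 CPM, above the 271 CPM of immune barcodes in the same library. Over 152 single KO TA-like barcodes of at least 5000 UMIs, its median was 144 CPM, below that immune level. Its upper quartile there was 302 CPM. Summed Gsta4 stood at 203 CPM against an immune level of 71.8, with a median of 79.0. Summed Gm10639 stood at 7.16 CPM against 3.17 on 3 immune UMIs, with a median of 0. The part of free RNA in these levels was not tested.

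Across 23 cluster-by-library units with at least 20 barcodes, the alpha class genes varied together. The Pearson correlation of log2(CPM + 1) was 0.94 for Gsta1 with Gsta4, 0.92 for Gsta1 with Gm10639 and 0.82 for Gsta4 with Gm10639. For Gstm1 with Gstm3 it was 0.81. Pairs from different classes ran from -0.18 for Gsta4 with Mgst1 to 0.81 for Mgst1 with Nqo1, so high values were not limited to pairs of 1 class. Among 6017 genes of at least 50 CPM in 1 unit, the most like Gsta1 were Cyp3a13, a cytochrome P450 (0.97), Egln3, an oxygen-sensing prolyl hydroxylase (0.95), and Dgat2, an enzyme of triglyceride synthesis (0.93). The most like Gsta4 was Anxa2 (0.94), Gm10639 Alpi, the intestinal alkaline phosphatase (0.95), Gstm3 Nr1h3, the oxysterol receptor LXR alpha (0.88), and Gstm1 Arl4a (0.80). The most like Mgst1 was Otc, a urea cycle enzyme (0.95), Nqo1 Cyc1, a subunit of respiratory complex III (0.95), Gsto1 Gipc2 (0.95), Gstp1 Mrpl51, a mitochondrial ribosomal protein (0.92), and Cbr3 Amdhd2 (0.81) and Akr1c19 (0.80). Units of 1 library share its free RNA and depth, so these values are descriptions over 23 units.

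Other genes of the same pathways were counted from fixed lists, in KO over control, over all epithelial barcodes, where 10.3% of all genes were higher and 25.3% lower and their median log2 ratio was -0.33. These shares stand beside each list count that follows for that comparison, and nothing particular to a list is read from them. Of 18 other glutathione transferases measured 4 were higher and 4 lower (median -0.05). Gsta3 was 5.63-fold higher (2.96 to 16.7 CPM; interval 4.29 to 7.52) and Gsta2 2.59-fold, while Gstm2 was 3.92-fold lower (34.7 to 8.85 CPM) and Hpgds, the prostaglandin D synthase, 3.48-fold lower. Gstm4, Gstm5, Gstm6 and Gstm7 were within 2-fold. Inside the enterocyte-like class the values differed from these: control and KO were close for Gsta2 (23.8 and 23.2 CPM) and Gsta3 (8.49 and 8.76 CPM), and the KO level was less than 0.5 times the control level not only for Gstm2 (58.7 and 6.97 CPM) but also for Gstm4 (56.7 and 12.8 CPM) and Gstm6 (107 and 48.1 CPM). Of 19 other carbonyl and quinone reductases 2 were higher and 2 lower (median 0.10). Akr1b8, an aldo-keto reductase, was 16.0-fold higher (5.61 to 89.7 CPM; interval 13.2 to 19.6) and Aldh3a2 2.17-fold, whereas Akr1c14 was 12.9-fold lower and Aldh1a1, a retinaldehyde dehydrogenase, 7.18-fold lower (193 to 26.9 CPM).

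Of 17 genes of glutathione synthesis and redox 3 were higher and 2 lower (median 0.49). Oplah, which recycles 5-oxoproline, was 5.28-fold higher and Gss, glutathione synthetase, 3.46-fold (53.4 to 185 CPM), and Gpx3 and the cystine carrier Slc7a11 were 5.41-fold and 4.19-fold lower. Inside classes both were at very low levels with the opposite order, Slc7a11 at 0.554 and 1.84 CPM in control and KO enterocyte-like barcodes and 0.659 and 4.08 in TA-like ones, and Gpx3 at 0.185 and 0.666 CPM in enterocyte-like ones and 0 and 0.371 in TA-like ones. The subunits of the rate-limiting ligase were 1.28-fold (Gclc, 1.17 to 1.41) and 1.41-fold higher (Gclm, 95.4 to 134 CPM), both within 2-fold. Of 27 NRF2 target genes outside the set 10 were higher and 3 lower (median 0.73). Srxn1, sulfiredoxin, was 4.17-fold higher (38.8 to 162 CPM) and Me1, malic enzyme, 3.67-fold, and Ephx1 and Slc7a11 were lowest, Ephx1 at 9.37-fold lower. Nfe2l2 itself stood at 156, 215 and 252 CPM, and Keap1 at 30.5, 30.7 and 37.5, so neither differed 2-fold. Against the KO, the rescue had 1 of the 27 NRF2 target genes higher and 6 lower (median -0.44), where 22.7% of all genes were higher and 11% lower and the median was 0.32.

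Of 8 genes listed as AHR targets 4 could be measured: Tiparp, Cyp1a1, the receptor gene Ahr itself and Nfe2l2. Of these 0 were higher and 2 lower, Tiparp by 2.77-fold and Cyp1a1 by 2.04-fold. Of 31 genes of conjugation, phase 1 metabolism and efflux 6 were higher and 12 lower (median 0.04). Cyp3a13 was 7.54-fold higher (168 to 1267 CPM) and Sult2b1, a sulfotransferase, 3.62-fold, while Cyp2c66 was 41.3-fold lower (40.4 to 0.978 CPM) and Cyp2b10 37.3-fold lower (62.6 to 1.68 CPM). Against the KO, 12 of the 31 were higher in the rescue and 6 lower (22.7% and 11% of all genes), with Cyp2c66 at 36.0 and Cyp2b10 at 29.2 CPM. The detoxifying genes outside the set therefore held members in both directions, as the 10 genes did.

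Other fixed lists also held genes that differed between the libraries, and their part in the differences above was not tested. The lists were chosen with earlier results of these data known, so nothing is read from their counts. Of 18 regenerative genes 14 were higher in the KO and 0 lower (10.3% and 25.3% of all genes; median 3.19), with summed levels of 2728, 14799 and 2876 CPM. Anxa10 had 0 UMIs in the control and 662 CPM in the KO, at least 4090-fold above the control floor of 3 counts over the group, while Cd44 stood at 37.3 and 26.2 CPM in control and KO. Inside classes Cd44 was higher in the KO, with 2.03 and 12.1 CPM in enterocyte-like and 41.5 and 103 CPM in TA-like barcodes. Of the 18, 17 were lower in the rescue than the KO, against 11% of all genes. Of 7 genes of the proximal intestine 4 were higher in the KO and 1 lower: Cybrd1, the duodenal ferric reductase, stood at 1.67, 820 and 0.703 CPM and Slc40a1, the iron exporter, at 24.1, 405 and 85.4, but Lct, lactase, at 95, 0.326 and 43.0 CPM. Of 6 measured distal genes 2 were higher and 0 lower, Bcl2l15 and Slc10a2, of which Bcl2l15 had 6.65 and 6.79 CPM in control and KO enterocyte-like barcodes. Summed enterocyte markers stood at 27063, 78444 and 19512 CPM, with 9 of 24 higher and 4 lower in KO over control. The labels name small-intestinal crypts and no segment, so a difference of segment and one of genotype cannot be told apart here.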

How the data were processed

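Single-cell libraries of small-intestinal crypts (10x Chromium 3' chemistry, version 3), 1 each for control, KO and rescue by the labels' genotypes, were analysed from the deposited matrices, whose values are counts of UMIs per gene and barcode. Cell Ranger made them, version 3.0.2 for control and KO and 3.1.0 for rescue per the file headers, and 1.3.0 per the submitters' processing notes. The build was not given in the sources used here. Among 28692 gene identifiers 28339 (98.8%) matched GENCODE vM21, the source of coordinates, and start-site windows came from RefSeq (GRCm38.p6). The deposited tables held 6152, 4786 and 3449 barcodes. The limits on genes, UMIs and mitochondrial share left 1595, 2036 and 1897, and the mitochondrial limit alone removed 66.3%, 54.1% and 38.3%. Between 3 and 11 barcodes were shared by pairs of deposited tables, and 0 by their epithelial barcodes.

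UMIs were summed per library, cluster or class. CPM have exact Poisson intervals, ratios conditional exact binomial intervals, and shares exact Clopper-Pearson intervals. A floor is 3 counts. Genes needed 20 UMIs in either library to be counted. Epithelial barcodes were clustered together without batch correction (2000 variable genes without the 10 genes and mitochondrial genes, 40 components, 15 neighbours, Leiden at resolution 1.0; scikit-learn 1.9.0, leidenalg 0.10.2, numpy 2.4.6, scipy 1.17.1). A cluster was named where at least 3 markers and 20% of a list were 2-fold up with at least 10 UMIs, and where as many of its 10 leading genes as for any other class were markers. That rule was set after the data were examined, because a first one gave non-epithelial names to epithelial clusters. Doublets were not removed, and an alternative removed 7, 24 and 11 barcodes. Named genes were mainly drawn from the 10 genes, the targeted genes, Nfe2l2, Keap1, Gclc and Gclm, the 2 highest and 2 lowest of each list, and the 3 most like each gene. Not all of these are printed above. Of the targeted genes, Yap1 stood at 19.4, 23.2 and 14.5 CPM in enterocyte-like and 25.7, 34.8 and 27.0 in TA-like barcodes. Wwtr1 (Taz) stood at 1.66, 13.0 and 0.406 CPM and at 10.5, 14.0 and 5.48. The limit given for Cdc42 tags holds for these too. The members and lists were chosen with earlier results of these data known. The ratio step, checked on data simulated for KO over control (12668 genes), returned medians of 4.01, 1.99, 1.00, 0.497 and 0.253 where 4, 2, 1, 0.5 and 0.25 had been put in.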

Additional observations from a re-analysis of the deposited data

Results flagged for a closer look

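Gstm1 differed in opposite directions between classes in rescue over KO. Its log2 ratio was 2.40 in enterocyte-like barcodes (66.3 CPM in the KO, 351 in the rescue) and -1.11 in TA-like barcodes (101 and 46.8 CPM). The classes came from different clusters in each library, and in TA-like barcodes KO cluster 6 stands against rescue clusters 4 and 13. With 1 library each, the difference between the classes was not tested.

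Epithelial barcodes above the 20% mitochondrial limit, 2170, 1447 and 697 in the order control, KO, rescue, enter no comparison above. In them several genes stood at least 2-fold above the control in CPM whose totals keep mitochondrial UMIs. In the KO library Gstm3 stood at least 2-fold below it at 9.83 CPM (118 in the control), as did Gstm1 at 52.6 (165). No share over all genes was taken in these barcodes, so nothing is read from how many of the genes differed. Higher in the KO, Gsta1 stood at 2568 CPM (699 in the control), Gsta4 at 683 (66.9), Gsto1 at 439 (147) and Cbr3 at 6.40 (2.48). In the rescue library Gsta4 stood at 158 CPM, Gstm3 at 260 (118 in the control), Gstp1 at 114 (34.3), Cbr3 at 5.97 and Nqo1 at 24.8 (11.1). Rescue Gsta1, at 957 CPM, was above the control here and below it in the barcodes within the limit. With mitochondrial UMIs left out of the totals, KO Gsta1 stood at 4305 against 1586 CPM in the control. KO Cbr3 was then at 10.7 against 5.63, rescue Gstm3 at 516 against 268 and rescue Nqo1 at 49.1 against 25.2, each less than 2-fold higher. KO Mgst1, at 79.8 against 162, was then over 2-fold lower. The alpha class order of KO over control was thus the same in barcodes outside the limit.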

How the results depend on the processing

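No paired analysis was possible because each genotype had 1 library and the labels give no replicate numbers, and for the same reason no library could be left out. The number of the 10 genes at least 2-fold higher in KO over control was 5, against 10.3% of all genes. The share over all genes was not taken under the alternatives that follow, so nothing is read from how the counts moved. A mitochondrial limit of 10% left 174, 818 and 169 barcodes, of which 4, 375 and 3 were enterocyte-like. The number became 8 at that limit, 4 with reduced totals (without mitochondrial, ribosomal protein and alpha-defensin genes) and 3 with equal weight per class. The 2 lower became 0 at the 10% limit and 3 with median-ratio scaling, reduced totals or equal weight per class. The 2 higher in rescue over control became 4 at the 10% limit, 1 without called doublets, with equal weight per barcode, with reduced totals, or with a pseudocount of 5 CPM, and 0 with median-ratio scaling or equal weight per class. The 1 lower there became 0 at the 10% limit, with equal weight per barcode, after thinning or with the pseudocount. The 2 higher in rescue over KO became 0 at the 10% limit, 4 with equal weight per barcode or the reduced totals, and 3 with a 50% limit, after thinning or with equal weight per class, and the 4 lower became 5 at the 10% limit. Beside the limit, the cause was not tested.

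Log2 ratios that changed sign at the 10% limit were Gstm1 (0.90), Gstm3 (0.72) and Mgst1 (1.05) in KO over control, Gsta1 (0.43) in rescue over control, and Gstm1 (-1.36), Gstm3 (-0.20) and Nqo1 (-0.46) in rescue over KO. In KO over control, Gstp1 became -0.023 with reduced totals and -0.18 with equal weight per class, and Nqo1 became -0.076 with equal weight per barcode, -0.070 with reduced totals and -0.57 with equal weight per class. In rescue over control, Gstm3 (-0.011) and Mgst1 (-0.11) changed sign with equal weight per class. Of the member ratios over all alternatives, 199 moved by less than their counting interval, 177 by more and 14 changed sign. Inside the enterocyte-like class, among ratios whose interval left out 1, only Gstm1 in rescue over control changed sign. It became 0.28 at resolution 2.0, where the class held 110 rescue barcodes instead of 242. A 15% mitochondrial limit in that class, chosen after seeing the data, left 54, 696 and 139 barcodes and KO over control log2 ratios of 1.26 for Gsta1, 2.38 for Gsta4, -2.35 for Gstm1, -4.81 for Gstm3 and -2.43 for Mgst1. A 10% limit there left too few barcodes for a value. Leaving out the clusters led by plasma cell genes and by Gm26917, also chosen after seeing the data, changed none of the 6 counts.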

Other observations

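Shallow clusters outside the named classes held further values. In cluster 16, led by the interferon-induced genes Ubd, Isg15 and Ifit3 and with a median of 4199 UMIs, Gsto1 stood at 1021 CPM in 47 rescue barcodes (897 to 1157), against 425 CPM in the rescue enterocyte-like barcodes. The same cluster had 1139 CPM of Gsto1 in 6 control barcodes (751 to 1657) and 1210 in 5 KO barcodes (790 to 1772), and the 3 intervals overlapped. Mgst1 had 12 UMIs in these rescue barcodes.

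In cluster 9, led by plasma cell genes and with a median of 2008 UMIs, Gsta1 stood at 349 CPM in 36 control barcodes (234 to 501), at 7773 in 83 KO barcodes (7431 to 8127) and at 348 in 12 rescue barcodes (190 to 584). Gsta4 stood there at 1856 CPM in the KO, on 463 UMIs, and on 2 UMIs each in the control and rescue. At resolution 2.0 the cluster led by plasma cell genes held 36 control, 11 KO and 12 rescue barcodes. An unnamed cluster of 78 KO barcodes, led by Tff1 and with a median of 2118.5 UMIs, then stood apart. The KO barcodes of cluster 9 may therefore not be of the same kind as the control and rescue ones, and no difference is read from it. What part free RNA or mixed barcodes have in this cluster was not tested.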
